A study of Mus musculus with 9 samples.

Results

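The genes described here make nucleotides and the folate-bound carbon units that nucleotide synthesis uses. They were taken as the rows of the deposited count table whose symbol is one of 35 chosen names, and all 35 names matched 1 row each of the 46078 genes listed. They fall into 5 groups: 10 genes of de novo purine synthesis, 4 of phosphoribosyl pyrophosphate (PRPP) supply and purine salvage, 5 of de novo pyrimidine synthesis, 11 that make, recycle or remove deoxynucleotides or charge nucleotides to triphosphates, and 5 of the folate one-carbon cycle. Transcript 3′ ends were sequenced from 6 mouse T cell lymphomas induced by MYCN and collected from the thymus (libraries 34, 53, 56, 70, 72 and 86) and from 3 preparations of CD4+ T cells from the spleen (CD4 1, 2 and 3), which served as controls. Every animal was of strain C57BL/6J. The promoter and allele that carry MYCN, the ages, the sexes and whether the lymphomas arose in separate animals are not given in the sources used here, so p-values measure the spread between these libraries.

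Cells build purines stepwise on a PRPP molecule and pyrimidines as a free ring that is joined to PRPP afterwards. Ribonucleotide reductase then converts ribonucleotides to the deoxynucleotides that DNA synthesis consumes, and thymidylate synthase makes the thymine base with a folate carbon unit. Resting lymphocytes meet their small needs largely by salvage, while dividing lymphocytes raise de novo synthesis, and enzymes of both routes are textbook targets of MYC family factors and of antifolate, antipurine and antipyrimidine drugs.

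MYC family proteins bind the E-box CACGTG, so the promoters of the chosen genes were searched for it. RefSeq windows (GRCm38.p6) that run from 250 bases before to 50 bases after each start were found for 32 of the 35 genes, and the palindrome CACGTG, which reads the same on both strands, was present for 5 of them, or 15.6%. The share was 8.09% among all 27025 genes with a window and 11.4% among the 9849 of these that were also tested for expression. The sites of the 5 genes are shown with 12 bases on either side, 5′ to 3′ on the gene's strand, with the E-box in capitals. Positions count from the RefSeq start.
Tyms, at -61 (chr5:30073669-30073698, minus strand): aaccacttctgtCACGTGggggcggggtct
Paics, at -203 (chr5:76951087-76951116, plus strand): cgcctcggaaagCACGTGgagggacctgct
Impdh2, at -110 (chr9:108560314-108560343, plus strand): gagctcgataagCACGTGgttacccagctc
Atic, at -7 (chr1:71557137-71557166, plus strand): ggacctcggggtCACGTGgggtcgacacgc
Nme1, at -18 (chr11:93968273-93968302, minus strand): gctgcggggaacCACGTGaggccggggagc
The Paics site lies within an exon of the neighbouring gene Ppat in GENCODE M21, on the opposite strand. The starts of these genes overlap head to head by 271 bases. In the same annotation the stretches shown for Impdh2, Atic and Nme1 overlap exons of these genes themselves. That of Nme1 also overlaps an exon of the gene model Gm20390. The Impdh2 stretch lies past the GENCODE gene start at chr9:108560286. Of the stretches shown, only that of Tyms overlaps no annotated exon. Nme1 had a second annotated start with an E-box of its own. The 200 bases before the start of Tyms, the gene with the largest rise of the list, hold no annotated exon and are shown in full (chr5:30073626-30073825, minus strand), again with the E-box in capitals.
Tyms upstream: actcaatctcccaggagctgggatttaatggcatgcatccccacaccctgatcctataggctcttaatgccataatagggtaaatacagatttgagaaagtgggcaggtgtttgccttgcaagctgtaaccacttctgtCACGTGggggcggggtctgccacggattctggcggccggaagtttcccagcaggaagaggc
Other motifs were searched on both strands. The E2F strings TTTGGCGC, TTTCCCGC, TTTCGCGC and TTTGCCGC were found in 6.25% of the 32 genes (Ppat and Prps2) against 2.60% of all genes and 4.59% of tested genes, the NF-Y string CCAAT in 37.5% against 41.1% and 42.5%, the perfect palindrome of the NRF1 motif in 6.25% (Ctps and Shmt2) against 1.07% and 2.33%, and the ATF4 string TGATGNAAT in 0 of the 32 against 1.08% and 0.548%. None of these strings contains another. A match is a description of these letters, not evidence of binding.

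Reads in genes numbered 11170704 to 15769679 per lymphoma and 8099960 to 10808828 per CD4 library. Levels are given as CPM, the count divided by the scaled library size and multiplied by 1000000, and folds as lymphoma over CD4 on the log2 scale with the standard error (SE) from edgeR's quasi-likelihood fit. Of all tested genes, 24.7% were called higher in lymphoma and 21.9% lower, at the threshold given below. Of 10 T cell markers, 9 did not pass the test, and Cd4 was lower in lymphoma. Their summed level was 2214 to 2357 CPM in CD4 and 1376 to 1991 CPM in lymphoma, without overlap. Cd8a and Cd8b1 overlapped through lymphoma 53, at 29.4 and 47.6 CPM. The other lymphomas had at most 1.53 and 0.735 CPM, against at least 25.6 and 35.9 CPM in CD4. The libraries differed in more than the chosen genes. The summed level of 10 B cell markers was 1254 to 1514 CPM in CD4 against 6.85 to 13.4 CPM in lymphoma, with all 10 lower, and that of 8 plasmacytoid dendritic cell markers was 783 to 837 against 95.9 to 390.0 CPM, with 7 lower. No gene of either list was at 0 in all lymphomas. For 10 myeloid markers it was 635 to 758 in CD4 and 159 to 2222 CPM in lymphoma. Csf1r, Itgam, Adgre1 and Mpeg1 were lower, and the other 6 did not pass. The sums overlapped through lymphomas 34 and 56, at 845 and 2222 CPM. In these, S100a8 had 264 and 1035 CPM and S100a9 396 and 989 CPM, against at most 216 and 220 CPM in CD4. Of 20 proliferation genes, 20 were higher, at a summed 4079 to 5843 CPM in lymphoma and 490.3 to 645 in CD4. For 9 erythroid markers the sums overlapped, at 14.0 to 889 CPM in lymphoma and 100.1 to 359 in CD4, and for 10 stromal and epithelial markers they were 38.5 to 99.4 and 26.2 to 35.6 CPM, with 2 higher. Xist stood at 493, 582 and 565 CPM in CD4 and at 4.66 to 11.3 CPM in lymphoma, and Y-linked Ddx3y at 0.191, 0.720 and 0.734 against 119 to 178 CPM, so sex, tissue and group cannot be told apart. Lymphoma 53 lay apart from the other 8 libraries on the second principal component, which held 13.6% of the variance. In these bulk samples fewer cells of a type and less RNA per cell cannot be told apart, and the part of other cell types or of proliferation in the results was not tested.

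Nearly the whole list was higher in lymphoma. Of the 35 genes, 34 passed the filter on low counts, and 30 of these were higher at an edgeR adjusted p under 0.05, adjusted by Benjamini and Hochberg's method over all 15401 tested genes. Of all tested genes 46.6% were called in either direction, and 24.7% were called higher. Lower calls went to 2 genes, Samhd1 and Rrm2b, against 21.9% of tested genes, and 2 genes, Impdh1 and Ctps2, did not pass. At a change of at least 2-fold as well, 28 were higher (17.9% of tested genes) and 2 lower (17.2%). The lymphomas lay wholly above the CD4 libraries at 30 genes (22.6% of tested genes) and wholly below at 2 (22.3%). The median log2 fold change of the 34 genes was 1.97, against 0.04 over all tested genes, and 17 of the 34 lay above the 90th percentile of all tested genes, which was 2.01. Nme2 was the gene that was not tested. Because genes were chosen with earlier results of these data known, the counts describe the list and are not independent support for its direction.

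**Figure D1:**
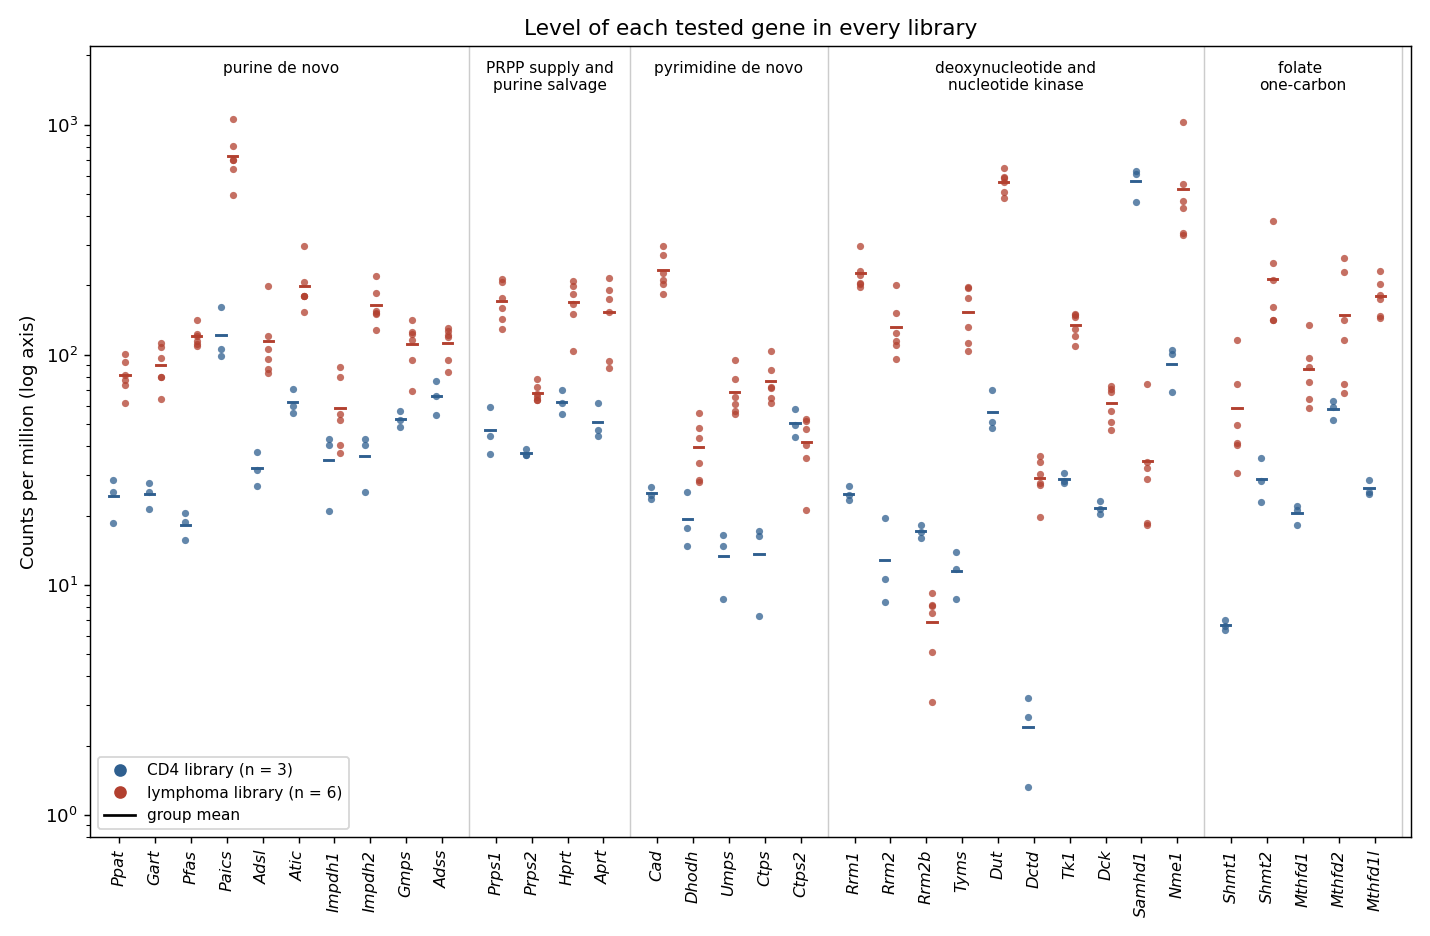
Level in CPM (log axis) of the 34 tested genes in each of the 9 libraries, by group of genes, with a point per library and a bar at each group mean. Red lymphoma points lie above all blue CD4 points except at Impdh1 and Ctps2, where they overlap, and at Rrm2b and Samhd1, where they lie below; levels compare between libraries within a gene, not between genes.

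Transcripts of de novo purine synthesis were higher at every listed gene but Impdh1, which did not pass. Of 10 genes, 9 were higher, 8 of them at least 2-fold, 0 were lower, and the median log2 fold change was 1.80. The pathway opens with Ppat (ENSMUSG00000029246, chr5:76913249-76951578), the amidotransferase that commits PRPP to purines. Ppat had 25.4, 28.7 and 18.5 CPM in CD4 1, 2 and 3 and 61.5 to 101 CPM in lymphoma, with a median of 79.8, and its log2 difference was 1.75 (SE 0.216, edgeR adjusted p 5.19e-05). The lowest lymphoma thus lay well above the highest CD4 library. Paics (ENSMUSG00000029247, chr5:76951307-76967509) shares the head-to-head start region with Ppat and encodes the carboxylase and ligase of the middle steps. It had 161, 106 and 98.4 CPM in CD4 and 493 to 1054 CPM in lymphoma (median 700) (log2 fold change 2.59, SE 0.266, edgeR adjusted p 1.42e-05). Lymphoma 53 was the lowest lymphoma for both genes, while the highest was 86 for Ppat and 72 for Paics.

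Pfas, the glutamine-using synthase between them in the pathway, rose most of the group. It had 18.7, 15.6 and 20.5 CPM in CD4 and 109 to 142 CPM in lymphoma, with a median of 118 (log2 fold change 2.72, SE 0.179, edgeR adjusted p 5.77e-07). Its lymphomas were close together, the highest at 1.31 times the lowest. Gart, an enzyme with 3 activities in the pathway that uses a folate carbon unit, rose by 1.86 (SE 0.220, edgeR adjusted p 3.85e-05), from 27.8, 25.2 and 21.4 CPM to between 64.1 and 113 CPM. Atic, which carries out the last steps to inosine monophosphate (IMP) and also takes a folate carbon unit, rose by 1.68 (SE 0.223, edgeR adjusted p 8.78e-05), from 59.9, 70.7 and 55.6 CPM to between 153 and 296 CPM. Adsl, the lyase that acts both before IMP and on the way to adenine nucleotides, rose by 1.84 (SE 0.293, edgeR adjusted p 0.000337). Its CD4 values were 31.7, 37.9 and 26.8 CPM, and 5 lymphomas had 83.1 to 121 CPM while lymphoma 53 had 198 CPM.

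Past IMP the pathway splits into a guanine and an adenine arm, and whether the arms differed was not tested. On the guanine arm, Impdh2, the IMP dehydrogenase isozyme that dividing lymphocytes are known for, rose by 2.19 (SE 0.238, edgeR adjusted p 2.17e-05). Its levels were 42.9, 25.2 and 40.4 CPM in CD4 and 129 to 219 CPM in lymphoma, with no overlap. The other isozyme, Impdh1, had 20.9, 40.3 and 42.9 CPM in CD4 and 37.5 to 88.2 CPM in lymphoma, and its value of 0.76 (SE 0.323) did not pass (edgeR adjusted p 0.0718). The groups overlapped through lymphomas 53 and 70, and without either of them Impdh1 did pass (edgeR adjusted p 0.0312 without lymphoma 53 and 0.0418 without lymphoma 70). Gmps, which completes guanosine monophosphate, rose by 1.09 (SE 0.221, edgeR adjusted p 0.00169), with lymphoma 53 lowest at 69.5 CPM against 48.7 to 56.8 CPM in CD4. On the adenine arm, Adss rose by 0.77 (SE 0.193, edgeR adjusted p 0.00622), from 77.2, 54.8 and 66.1 CPM to between 83.9 and 130 CPM. Adsl, which rose by 1.84 as given above, also acts on this arm. At 71.5, the percentile of Adss among the folds of all tested genes was the lowest of the 30 genes called higher.

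Transcripts of PRPP supply and purine salvage moved the same way with smaller values. All 4 genes of the group were higher, 3 of them at least 2-fold, with a median log2 fold change of 1.51. PRPP synthetase makes the sugar phosphate that both routes start from. Prps1 had 59.4, 37.0 and 44.1 CPM in CD4 and 129 to 214 CPM in lymphoma (median 168) (log2 fold change 1.87, SE 0.229, edgeR adjusted p 5.07e-05). Its paralogue Prps2 had 38.7, 36.6 and 36.6 CPM in CD4 and 63.6 to 78.8 CPM in lymphoma (median 66.3) (log2 fold change 0.88, SE 0.150, edgeR adjusted p 0.000568). The lymphomas varied less at Prps2 than at any other tested gene of the list, with an SD of 0.12 on the log2 scale. Hprt, which salvages hypoxanthine and guanine, rose by 1.44 (SE 0.226, edgeR adjusted p 0.000303), from 55.4 to 69.9 CPM in CD4 to between 104 and 210 CPM. Aprt, which salvages adenine, rose by 1.58 (SE 0.305, edgeR adjusted p 0.00125), and its lymphomas ranged from 87.5 CPM in lymphoma 72 to 216 CPM in lymphoma 53 against 44.3 to 61.4 CPM in CD4. Prps1, Prps2, Hprt and Ctps2 are on the X chromosome, the only 4 of the 35 genes that are, and sex differed with the groups as given above.

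De novo pyrimidine synthesis held 1 of the largest changes. Of its 5 genes, 4 were higher, each at least 2-fold, 0 were lower and 1 did not pass, with a median log2 fold change of 2.37. Cad (ENSMUSG00000013629, chr5:31054780-31078479) encodes the 3 fused enzymes that start the pathway and is a classic target gene of MYC. Its levels were 23.7, 26.6 and 24.6 CPM in CD4 and 184 to 297 CPM in lymphoma, with a median of 219 (log2 fold change 3.22, SE 0.210, edgeR adjusted p 5.43e-07). Each lymphoma was far above each CD4 library, and both groups were tight, with the highest library at 1.61 and 1.13 times the lowest. Dhodh, the mitochondrial dehydrogenase of the pathway, rose by 1.04 (SE 0.279, edgeR adjusted p 0.00903), from 14.8, 25.2 and 17.7 CPM to between 28.1 and 55.6 CPM. Umps, which forms uridine monophosphate, rose by 2.37 (SE 0.270, edgeR adjusted p 2.92e-05), from 16.5, 8.64 and 14.7 CPM to between 55.1 and 95.2 CPM.

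The CTP synthases, which make cytidine from uridine triphosphate, parted. Ctps had 16.2, 7.32 and 17.2 CPM in CD4 and 61.7 to 104 CPM in lymphoma (log2 fold change 2.49, SE 0.297, edgeR adjusted p 4.04e-05). Ctps2 had 49.6, 43.7 and 58.0 CPM in CD4 and 21.1 to 52.7 CPM in lymphoma, and its value of -0.28 (SE 0.258) did not pass (edgeR adjusted p 0.408). The groups overlapped for Ctps2, and lymphoma 53 was lowest, at 0.442 times the median of the other lymphomas.

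The deoxynucleotide group held both the largest rises and the 2 falls. Of its 11 genes 10 were tested, with 8 higher and 2 lower, each of them at least 2-fold, and the folds ran from -4.05 to 3.73. Ribonucleotide reductase is built from a large subunit, Rrm1, and a small subunit that is Rrm2 in S phase and Rrm2b, a p53 target, outside it. Rrm1 had 24.5, 26.8 and 23.4 CPM in CD4 and 196 to 298 CPM in lymphoma (log2 fold change 3.18, SE 0.196, edgeR adjusted p 3.98e-07). Rrm2 had 19.6, 8.399 and 10.6 CPM in CD4 and 95.5 to 199.99 CPM in lymphoma (3.36, SE 0.343, edgeR adjusted p 1.35e-05). Rrm2b went the other way, with 18.2, 17.0 and 15.96 CPM in CD4 and 3.10 to 9.22 CPM in lymphoma (median 7.82). It fell by 1.31 (SE 0.332, edgeR adjusted p 0.00667), without overlap, and lymphoma 86 had the lowest level.

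Tyms, Dctd and Dut, were each higher. Tyms (ENSMUSG00000025747, chr5:30058202-30073617), thymidylate synthase and the target of fluorouracil, had 11.7, 8.64 and 13.9 CPM in CD4 and 103 to 197 CPM in lymphoma, with a median of 154. Its 13.3-fold difference (log2 fold change 3.73, SE 0.303, edgeR adjusted p 2.50e-06) was the largest of the list and exceeded 96.3% of those of all tested genes. Dctd, which deaminates deoxycytidylate to supply its substrate, had 2.67, 1.32 and 3.21 CPM in CD4 and 19.6 to 36.2 CPM in lymphoma (3.58, SE 0.347, edgeR adjusted p 9.26e-06). Dut, which removes deoxyuridine triphosphate before it enters DNA, had 70.03, 47.9 and 50.8 CPM in CD4 and 482 to 650 CPM in lymphoma (3.32, SE 0.194, edgeR adjusted p 2.89e-07). No lymphoma came near a CD4 library at any of the 3 genes. Among these, lymphoma 56 was lowest for Tyms at 103 CPM and highest for Dctd at 36.2 CPM.

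The salvage kinases rose less in value. Tk1, the cytosolic thymidine kinase of S phase, had 30.7, 27.7 and 28.2 CPM in CD4 and 109 to 151 CPM in lymphoma (2.22, SE 0.175, edgeR adjusted p 2.00e-06). Dck, which phosphorylates deoxycytidine and several nucleoside drugs, had 23.1, 21.4 and 20.4 CPM in CD4 and 47.2 to 73.1 CPM in lymphoma (1.51, SE 0.199, edgeR adjusted p 8.70e-05). Beside these values, the log2 fold changes of the 20 proliferation genes ran from 1.99 to 4.54, with a median of 3.48.

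Samhd1 (ENSMUSG00000027639, chr2:157097533-157135265), the triphosphohydrolase that breaks deoxynucleotides down and is abundant in resting and myeloid cells, had the largest fall. It had 608, 632 and 463 CPM in CD4, while 5 lymphomas had 18.1 to 34.2 CPM and lymphoma 53 had 74.5 CPM. The log2 difference was -4.05 (SE 0.391, edgeR adjusted p 1.51e-05), a 16.5-fold difference, and only 3.49% of tested genes had a lower one. Without lymphoma 53 it was -4.43. The B cell and plasmacytoid dendritic cell sums given above were also higher in CD4. The myeloid sum overlapped through lymphomas 34 and 56, and of the 10 myeloid markers 4 were lower in lymphoma and 0 higher. The part of these cell types in the fall of Samhd1 was not tested.

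Nme1 and Nme2 encode neighbouring nucleoside diphosphate kinases, which charge diphosphates to triphosphates. Nme1 had 104, 68.9 and 100.5 CPM in CD4, 331 to 550.5 CPM in 5 lymphomas and 1025 CPM in lymphoma 53 (2.52, SE 0.381, edgeR adjusted p 0.000275). The groups did not overlap, and without lymphoma 53 the value was 2.21. Nme2 had at most 3 counts in any library, so no fold is given. Of its exon bases, 48.9% are shared in GENCODE M21 with Gm20390, a gene model that also covers 12.5% of Nme1. The deposited table sets reads that fit more than 1 gene apart in a row of their own. The annotation used for the counting is not given, and the cause of the low count was not tested. The count of Nme2 is therefore not read as its level.

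The folate one-carbon genes were higher without exception. Of the 5 groups, theirs had the largest median SD among lymphomas, at 0.56 on the log2 scale. Within the group the SD ran from 0.26 at Mthfd1l to 0.80 at Mthfd2. All 5 were higher, each at least 2-fold, with a median log2 fold change of 2.78. Serine hydroxymethyltransferase moves a carbon from serine to folate, in the cytosol as Shmt1 and in mitochondria as Shmt2. Shmt1 had 7.06, 6.36 and 6.61 CPM in CD4 and 30.6 to 116 CPM in lymphoma, with a median of 45.3 (3.13, SE 0.439, edgeR adjusted p 0.000149). Shmt2 had 35.6, 28.2 and 22.9 CPM in CD4 and 141 to 380 CPM in lymphoma, with a median of 186 (2.89, SE 0.362, edgeR adjusted p 6.37e-05). Lymphoma 86 was highest for Shmt1 and lymphoma 53 for Shmt2, while lymphoma 70 was lowest for both.

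Downstream, the carbon unit is oxidised and released as formate in mitochondria by Mthfd2 and Mthfd1l and taken up again in the cytosol by Mthfd1. Mthfd1l had 24.8, 28.7 and 25.4 CPM in CD4 and 145 to 230.3 CPM in lymphoma (2.78, SE 0.206, edgeR adjusted p 1.36e-06). Mthfd1 had 18.2, 22.0 and 21.2 CPM in CD4 and 58.4 to 135 CPM in lymphoma (2.08, SE 0.275, edgeR adjusted p 8.85e-05). Mthfd2 had 63.2, 59.3 and 52.2 CPM in CD4 and 68.4, 263, 141, 116, 74.5 and 228 CPM in lymphomas 34, 53, 56, 70, 72 and 86. Its log2 difference was 1.35 (SE 0.428, edgeR adjusted p 0.0233). The lowest lymphomas, 34 and 72, were close to the CD4 libraries, and the highest, 53 and 86, were several times above them. The call of Mthfd2 was lost without any 1 of the CD4 libraries (edgeR adjusted p 0.0515, 0.07 and 0.0803 without CD4 1, 2 and 3), with limma voom (0.0516) and without a filter (0.0502).

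**Figure D2:**
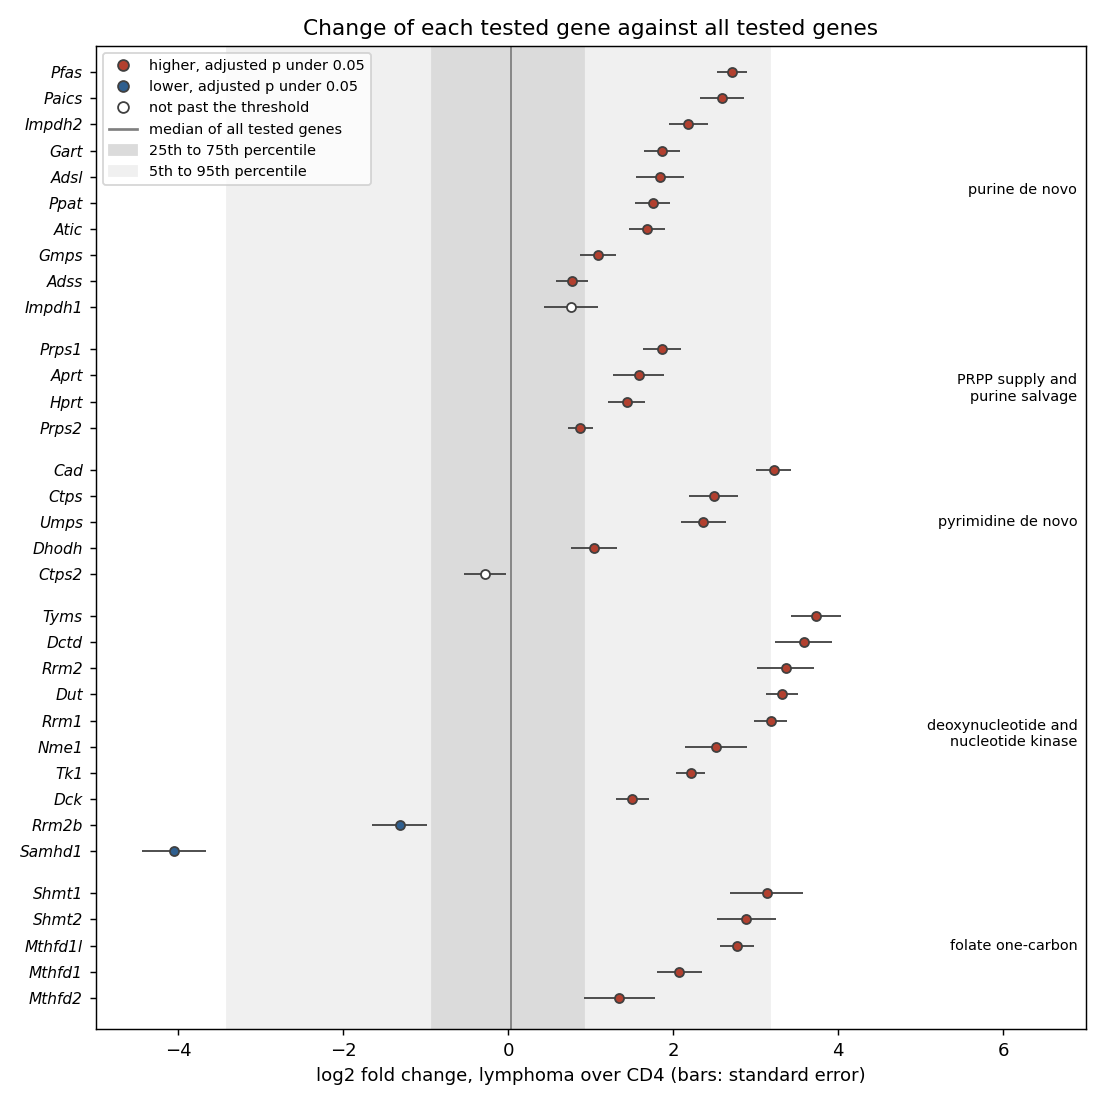
Log2 fold change, lymphoma over CD4, of the 34 tested genes (points, with bars for the standard error) by group of genes, over the median and percentiles of all 15401 tested genes (grey line and bands). Of the 34 points, 30 are red (higher), 2 blue (Rrm2b and Samhd1) and 2 open (Impdh1 and Ctps2), and Tyms lies farthest right at 3.73.

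Paralogues and isozymes of one reaction were compared within each library, since passing the test at one gene and not at another does not show that their changes differ. For 10 pairs the log2 ratio of (CPM + 0.5) was set between groups by an exact two-sided permutation test over the 84 assignments of 6 and 3 libraries, which can give no p below 0.0238, with Benjamini-Hochberg adjustment over the 10 pairs. The pair Nme1 and Nme2 is left uninterpreted for the reason given above, but it stood at the smallest p and counts in the adjustment. Of the other 9 pairs, 6 differed, each without overlap between groups and at the smallest p (exact permutation p = 0.0238, adjusted 0.0340). Their calls were lost without any 1 of lymphomas 34, 53, 70, 72 and 86 (adjusted exact permutation p 0.0510). They held without lymphoma 56, where Impdh2 over Impdh1 also passed (0.0446). There the adjusted p was lower only because that pair reached the smallest p as well. With 1 lymphoma left out there are fewer assignments and the smallest p is larger. The groups still did not overlap at these 6 pairs, so the losses do not show dependence on any 1 lymphoma.

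The ratio of Rrm2 to Rrm2b changed most. It was 0.10, -0.98 and -0.58 in CD4 1, 2 and 3 and 3.48 to 5.11 in lymphoma, with means of -0.48 ± 0.545 (SD, n = 3) and 4.21 ± 0.646 (SD, n = 6), a difference of 4.69 log2 units. Every lymphoma had a higher ratio than every CD4 library. The ratio of Tk1 to the mitochondrial kinase Tk2 rose by 3.18, from -0.60 ± 0.211 (SD, n = 3) to 2.59 ± 0.336 (SD, n = 6). Tk2 itself was lower in lymphoma, with 52.3, 44.6 and 36.2 CPM in CD4 and 13.8 to 28.5 CPM in lymphoma (log2 fold change -0.98, SE 0.239, edgeR adjusted p 0.00539). Ctps over Ctps2 rose by 2.85, from -1.94 ± 0.492 (SD, n = 3) to 0.92 ± 0.706 (SD, n = 6).

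The ratio of Dck to the mitochondrial kinase Dguok rose by 1.76, from -1.01 ± 0.333 (SD, n = 3) to 0.75 ± 0.333 (SD, n = 6). Dguok had 56.6, 46.9 and 31.9 CPM in CD4 and 30.6 to 43.9 CPM in lymphoma, with a value of -0.32 that did not pass (edgeR adjusted p 0.222). Prps1 over Prps2 rose by 1.001, from 0.30 ± 0.300 (SD, n = 3) to 1.30 ± 0.221 (SD, n = 6), and Mthfd1l over Mthfd1 by 0.74, from 0.36 ± 0.0910 (SD, n = 3) to 1.09 ± 0.230 (SD, n = 6). In each of these pairs the second gene changed less than the first.

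The other 3 pairs did not pass. Impdh2 over Impdh1 was 1.02, -0.67 and -0.09 in CD4 and 0.94 to 2.29 in lymphoma, a difference of 1.44 (exact permutation p = 0.0476, adjusted 0.0595), and the groups overlapped through CD4 1. Shmt2 over Shmt1 was 2.01 ± 0.270 (SD, n = 3) in CD4 and 1.91 ± 0.626 (SD, n = 6) in lymphoma, a difference of -0.10 (exact permutation p = 0.786, adjusted 0.786). Mthfd2 over Mthfd2l, the isozyme known from adult tissue, was 4.47 ± 0.359 (SD, n = 3) and 3.89 ± 0.831 (SD, n = 6), a difference of -0.58 (exact permutation p = 0.333, adjusted 0.370). Mthfd2l alone was higher in lymphoma, with 1.91, 1.92 and 2.66 CPM in CD4 and 6.86 to 9.86 CPM in lymphoma (log2 fold change 1.96, SE 0.347, edgeR adjusted p 0.000715). A difference that missed the threshold does not show that the genes of a pair changed alike.

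**Figure D3:**
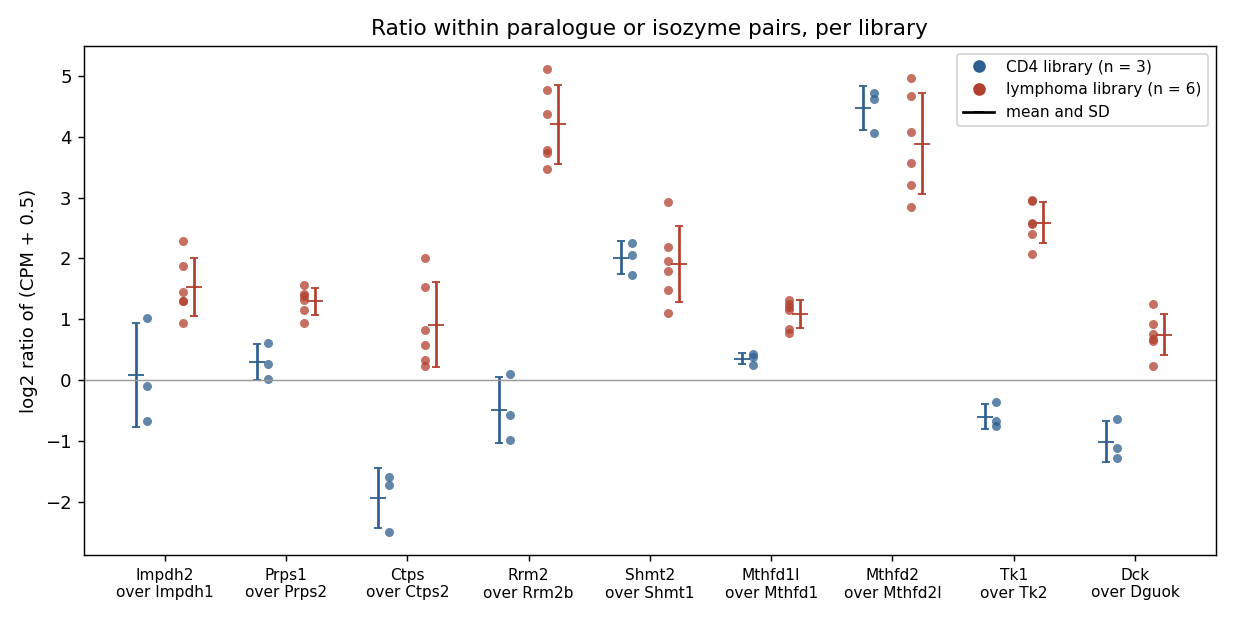
Log2 ratio of (CPM + 0.5) within 9 pairs of paralogues or isozymes in each library, with the mean and SD of the 3 CD4 (blue) and 6 lymphoma (red) libraries. Groups are apart at 6 pairs and overlap at Impdh2 over Impdh1, Shmt2 over Shmt1 and Mthfd2 over Mthfd2l; only shifts between groups compare, not heights between pairs.

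Among the lymphomas the list was not uniform. Lymphoma 86 had the highest level at 13 of the 34 genes and lymphoma 53 at 11, whereas lymphoma 34 was highest at 0, and lymphoma 72 was lowest at 11, lymphomas 53 and 70 at 8 each. Lymphoma 53 was thus often at 1 end or the other: highest at Gart, Adsl, Hprt, Aprt, Dhodh, Rrm2, Rrm2b, Samhd1, Nme1, Shmt2 and Mthfd2, and lowest at Ppat, Paics, Impdh1, Gmps, Adss, Prps1, Ctps2 and Tk1. The steadiest genes after Prps2 were Pfas and Dut (SD 0.14 and 0.15 on the log2 scale), and the most variable were Shmt1, Samhd1 and Mthfd2 (SD 0.69, 0.73 and 0.80). The median SD over the 34 genes was 0.34 in lymphoma and 0.24 in CD4, against 0.43 and 0.34 over all tested genes. Without lymphoma 53, 31 genes were higher and 2 lower, the added gene being Impdh1.

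**Figure D4:**
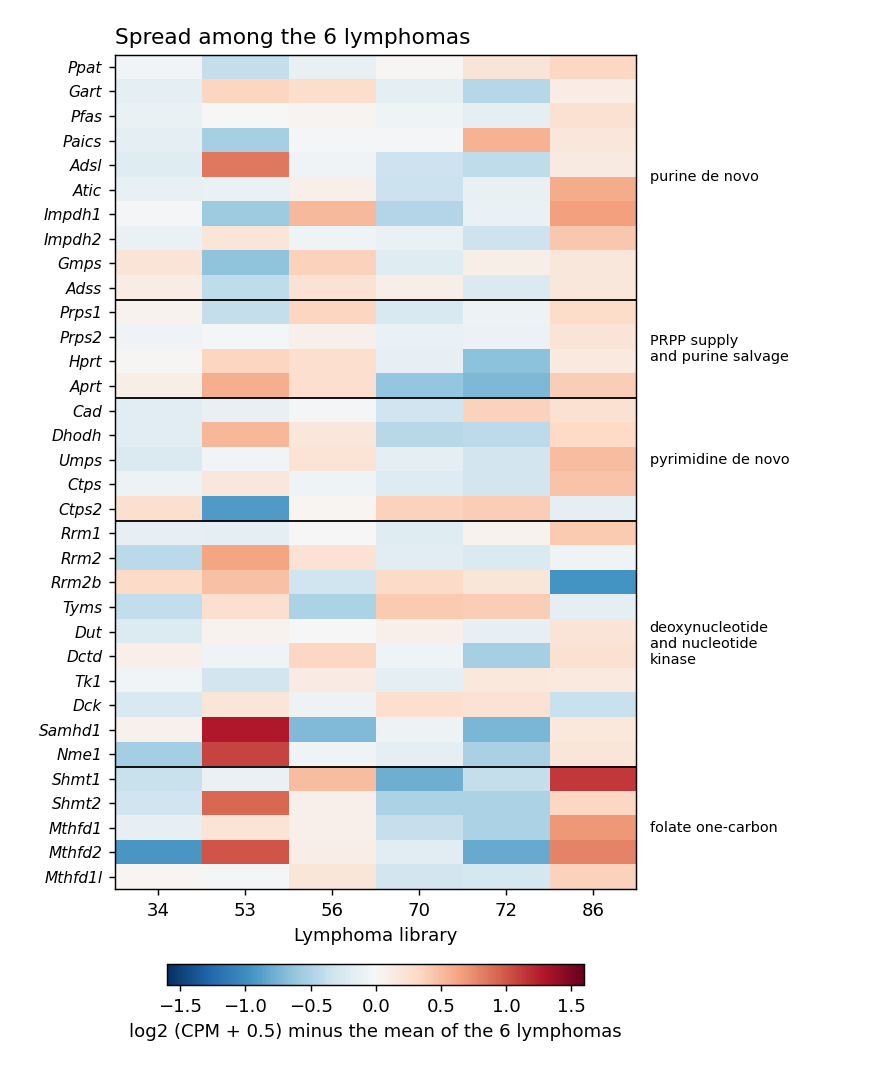
Deviation of each lymphoma from the mean of the 6 lymphomas in log2 (CPM + 0.5), for the 34 tested genes (rows, by group), red above and blue below the mean. Lymphoma 53 stands out in red at Samhd1, Nme1, Mthfd2, Shmt2 and Adsl and in blue at Ctps2 and Gmps, and lymphoma 86 in red at Shmt1 and in blue at Rrm2b.

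The surrounding pathway was examined through 4 wider lists of 80 genes in all, of which 64 were tested, 30 were higher and 10 lower, with a median log2 fold change of 0.71. Over all tested genes, 24.7% were higher and 21.9% lower, with a median of 0.04, so lower calls were not more frequent in these lists than among all genes. In the list of other folate genes 18 of 23 were tested, with 11 higher and 3 lower. Slc19a1, the reduced folate carrier, rose most of that list, from 7.73, 8.88 and 10.8 CPM to between 50.2 and 128 CPM (3.13, SE 0.337, edgeR adjusted p 1.99e-05). Ggh, which strips the glutamate tail that keeps folate in the cell, fell most, by 3.15 (SE 0.62, edgeR adjusted p 0.00150), from 7.35, 5.04 and 12.6 CPM to between 0.218 and 1.83 CPM. The groups did not overlap at either gene, but Ggh had only 3 to 25 counts per lymphoma, so the size of its fall is uncertain.

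Of 15 other nucleotide kinases 11 were tested, with 8 higher and 0 lower, beside 24.7% and 21.9% of all tested genes. The largest rise was that of Ak4, a mitochondrial adenylate kinase, with 13, 0 and 0 counts in CD4 1, 2 and 3 and 157 to 336 counts in lymphoma. Its fitted value of 5.41 (SE 0.94, edgeR adjusted p 0.000738) rests on CD4 1 and was 10.93 without it, when both remaining CD4 libraries had 0 counts. Of 20 other pyrimidine and nucleoside salvage genes 15 were tested, with 5 higher and 4 lower, shares near the 24.7% and 21.9% of all tested genes. Uck2, the uridine and cytidine kinase known from dividing cells, rose by 2.83 (SE 0.194, edgeR adjusted p 7.33e-07), from 38.9, 29.4 and 30.8 CPM to between 202 and 284 CPM. Upb1, which completes pyrimidine breakdown, fell by 3.90 (SE 0.902, edgeR adjusted p 0.00397), from 5.92, 10.9 and 8.16 CPM to at most 2.01 CPM, and its value was -4.86 without lymphoma 53.

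Of 22 other purine salvage and breakdown genes 20 were tested, with 6 higher and 3 lower, and 11 did not pass, shares near the 24.7% and 21.9% of all tested genes. Entpd1, the surface enzyme CD39 that degrades extracellular ATP, fell most, by 2.45 (SE 0.421, edgeR adjusted p 0.000571), from 9.92, 14.3 and 13.3 CPM to between 1.18 and 4.11 CPM. Pnp2, a purine nucleoside phosphorylase, had 0, 1 and 0 counts in CD4 and 83, 0, 112, 35, 39 and 153 counts in lymphomas 34, 53, 56, 70, 72 and 86. The gene was called higher (edgeR adjusted p 0.00707), though lymphoma 53 was at 0 like CD4, and the call was lost with limma voom (adjusted p 0.205). Pnp2 has a closely similar neighbour, Pnp, so its count is uncertain.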

How the data were processed

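The deposited table holds a raw read count per Ensembl gene and library, per the file headers, for 6 lymphoma and 3 CD4 libraries. The submitters' processing notes name FastQC, HISAT2, SAMtools, HTSeq and the builds mm10 and GRCm38. Versions, annotation and strand setting are not given in the sources used here, so antisense and overlapping genes are uncertain, and 13 of the 35 genes share exon bases with another gene. The 5 summary rows of reads in no gene were left out. Gene counts were 27.8 to 35.0% of all reads in CD4 and 38.7 to 49.1% in lymphoma. The groups thus did not overlap in this share, and its part in the results was not tested.

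The test was edgeR 4.0.16 (R 4.3.3): filterByExpr (minimum count 10), TMM scaling, glmQLFit (robust) and glmQLFTest without covariates, over 15401 genes, threshold adjusted p 0.05. The code was tested on simulated data in which far fewer genes changed than were called here, with rises and falls in equal number. That run therefore does not test the scaling under changes as wide as these. Each SE was computed as the size of the log2 fold change over the root of its F statistic. DESeq2 1.42.0, limma 3.58.1 (voom), other scalings and filters, and leaving out each library were alternatives. Positions come from GENCODE M21 (GRCm38), promoter sequences from RefSeq (GRCm38.p6), matched by symbol. The genes named are the 35, the partners in the pairs and the largest called rise and fall of each wider list; 1 further gene of the naming rule is not reported here. The genes and lists were chosen with earlier results of these data known.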

Additional observations from a re-analysis of the deposited data

Results flagged for a closer look

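Of 53 results examined among the 6 lymphomas, 4 had 1 library far from the rest, where chance gives about 1 in 20, or 2.65. Lymphoma 53 was the far library in 3 of these. Adsl stood at 198 CPM in lymphoma 53, with 121 CPM in the next lymphoma. Samhd1 stood at 74.5 CPM in lymphoma 53, with 34.2 CPM in the next, and remained under every CD4 library. Nme1 stood at 1025 CPM in lymphoma 53, with 550.5 CPM in the next. Rrm1 stood at 298 CPM in lymphoma 86, with 232 CPM in the next.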

How the results depend on the processing

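Over the alternatives, the chosen genes called higher numbered 29 to 31 and those called lower 2, with 26 to 28 and 2 at 2-fold; leaving out 1 library gave 29 (without any 1 CD4 library) to 31 (without lymphoma 53 or 70). Calls changed only for Mthfd2 and Impdh1 among the 35, as given above, and no direction of a tested gene of the list changed. The median log2 fold change of all tested genes was 0.04, and -0.06 with upper quartile scaling and -0.07 with DESeq2; that of the chosen genes was then 1.87 and 1.92. Over all tested genes, 2-fold lower calls numbered 1756 with at least 10 counts in every library against 2647, since fewer genes (10581) were tested. Summing lymphomas 34, 70 and 72, the most alike, into 1 library left 30 higher and 2 lower. Paralogue ratios: with a pseudocount of 2 CPM the difference of Shmt2 over Shmt1 was 0.0657 in place of -0.10; the cause was not tested. Leaving out 1 library gave differences of -0.3076 to 0.058 for that pair (above 0 without lymphoma 86 and without CD4 1), 1.06 to 1.91 for Impdh2 over Impdh1 (adjusted p 0.0446 without lymphoma 56, exact permutation), 0.86 to 1.16 for Prps1 over Prps2, 2.57 to 3.03 for Ctps over Ctps2, 4.44 to 4.98 for Rrm2 over Rrm2b, 1.87 to 2.30 for Nme1 over Nme2, 0.69 to 0.80 for Mthfd1l over Mthfd1, -0.79 to -0.37 for Mthfd2 over Mthfd2l, 3.10 to 3.30 for Tk1 over Tk2 and 1.62 to 1.94 for Dck over Dguok. Without lymphoma 34, 53, 70, 72 or 86 the pairs that had passed reached an adjusted exact permutation p of 0.0510, and without lymphoma 56, where Impdh2 over Impdh1 also passed, 0.0446; 5 libraries against 3 allow fewer assignments. With 2 CD4 libraries or the summed library no p under 0.05 is possible. No paired analysis was possible because the groups share no replicate number. The depth limits Dctd, with 11 to 35 counts per CD4 library, Ggh, with 3 to 25 counts per lymphoma, and Upb1, Ak4 and Pnp2.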

Other observations

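Some of the chosen genes start beside a gene on the opposite strand. Starts, taken from the outer ends of the GENCODE M21 gene models, lay within 1000 bases for Ppat and Paics, which both rose. The same held for 3 genes whose neighbour is outside the list. Gart starts 554 bases from Son, a splicing cofactor gene, which had 1526, 1576 and 1742 CPM in CD4 and 1106 to 1479 CPM in lymphoma (log2 fold change -0.35, SE 0.142, edgeR adjusted p 0.0617). In GENCODE M21 Mthfd2 starts at chr6:83325908, 108 bases from Mob1a, a Hippo pathway gene. A RefSeq window of Mthfd2 searched above lay elsewhere, at chr6:83317555-83317854, so this distance depends on the annotation. Mob1a had 217, 132 and 127 CPM in CD4 and 39.4 to 122 CPM in lymphoma (-0.74, SE 0.297, edgeR adjusted p 0.0599). Both neighbours were below all CD4 libraries in all lymphomas without passing the test, beside the rises of 1.86 at Gart and 1.35 at Mthfd2. Tk1 overlaps the start of Afmid, which had at most 2.88 CPM in any library and did not pass (edgeR adjusted p 0.120). These neighbours were taken by distance after the results of the list had been seen, and the difference within each couple was not tested.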
